A study of Mus musculus with 7 samples.

Results

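Messenger RNA of 44 genes of the cell division cycle, chosen by gene symbol as markers of DNA replication (S phase) and of mitosis, was examined in follicular dendritic cells (FDCs), the stromal cells of B-cell follicles that display antigen to B cells. All 44 were among the 21176 genes of the table. The FDCs were isolated with a cell sorter from the popliteal nodes of non-immunised males aged 8 to 12 weeks. The groups were wild type (WT, 4 samples) and Ngfr KO (3 samples), labelled as knockouts of Ngfr, which encodes the p75 neurotrophin receptor. Each sample was an independent pool of nodes from several animals. The allele, the strain and how many animals entered a pool are not given in the sources used here.

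A dividing cell first doubles its DNA and then separates the copies. Before S phase, E2F transcription factors and cyclin E raise the enzymes that supply nucleotides and the MCM helicase that opens the DNA. After it, cyclin A, cyclin B and their kinase CDK1 rise together with spindle motors, kinetochore proteins and the anaphase-promoting complex (APC/C), which ends mitosis. FDCs of a resting node are regarded as mostly non-dividing, whereas germinal centre B cells, which touch them closely, divide fast.

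The deposited values are reads multiplied by 1 factor per library, so that a value of 1 stood for 230 to 295 reads. Depth was 17244925 to 18873542 reads in WT libraries and 20741770 to 21538400 in Ngfr KO libraries, so depth and genotype cannot be told apart; after thinning to 17244925 reads each, 16 of the genes below rose instead of 17. The targeted gene, Ngfr, had 97, 181, 298 and 298 reads in WT replicates 1 to 4 and 84, 104 and 46 reads in Ngfr KO replicates 1 to 3 (log2 change -1.26, SE 0.40, limma adjusted p = 0.0389). Ngfr KO replicate 2 lay within the WT range of reads, but on scaled values the groups did not overlap (0.377 to 1.30 in WT, 0.184 to 0.353 in Ngfr KO). The edgeR test did not call the gene (adjusted p = 0.0574), and which exons the knockout removes is not given. FDC markers were abundant in every library: the 12 listed FDC genes summed to 1811 to 5088 across WT libraries and 7842 to 10367 across Ngfr KO libraries. Of these, 11 rose, among them Cr2, complement receptor 2 (values of 50.2 ± 21.3, SD, n = 4, against 101 ± 8.68, SD, n = 3; limma adjusted p = 0.0239). Endothelial transcripts were also present, and 12 of 14 listed endothelial genes fell in Ngfr KO. Over all genes tested, 11.2% were called higher and 11.3% lower. WT replicate 3 stood apart in its immunoglobulin transcripts, with a summed value of 400.5 over 9 constant-region genes against 23.3 to 35.8 in the other WT samples.

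Among genes with a mean value of at least 0.1, most mitosis genes but only 1 DNA replication gene were called higher in Ngfr KO. Of the 44 genes, 17 rose, 0 fell, 23 were tested and not called, and 4 (Cdc6, Ccne1, Foxm1 and Bub1) had a mean value under 0.1 and were not tested. A gene was called when its Benjamini-Hochberg adjusted p in limma, over all 14300 genes tested on log2(value + 0.1), was under 0.05. Over those 14300 genes, 11.2% were called higher and 11.3% lower. At an unadjusted p under 0.05 limma also had 0 of the 44 lower, as did edgeR and DESeq2 on recovered reads at an adjusted p under 0.05. Of the 27 mitosis genes 16 rose, and of the 17 S phase genes 1 rose, Tk1. Of those 16, 7 reached a mean of 0.1 only through Ngfr KO. With no such filter 13 of the 27 mitosis genes rose, and Tk1 was not called. The median log2 change was 1.63 over the 25 mitosis genes tested, 0.24 over the 15 S phase genes tested and -0.04 over all genes tested. The 25 include 9 genes that reached a mean of 0.1 only through Ngfr KO. No test of the difference between the lists was made. In 17 of the 44 genes every Ngfr KO sample lay above every WT sample, against 16.7% of all genes tested. These 17 include Bub1, which was not tested. They also include Ccna2, Ccnb1, Aurka, Aurkb, Plk1 and Kif23, which passed the filter only through Ngfr KO. On recovered reads edgeR called 12 of the 44 higher, 11 of them shared with limma, beside 8.67% of its 16751 genes. In sorted bulk samples, a change in the number of dividing cells and a change in RNA per cell cannot be told apart.

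The size of the difference rested in part on 1 library. Ngfr KO replicate 1 was the highest of all 7 samples for 23 of the 27 mitosis genes, and Ngfr KO replicate 2 was the lowest of the 3 Ngfr KO samples for 23 of them. Without Ngfr KO replicate 1, 6 of the 44 genes rose, Ccnb1, Cdk1, Ube2c, Cenpe, Birc5 and Tpx2, while 6.15% of all genes tested were called higher. Without Ngfr KO replicate 2, 20 rose (5.5% of all genes), and without Ngfr KO replicate 3, 11 rose (9.52% of all genes). The same 6 genes were called in every fit that left out 1 library. Without Ngfr KO replicate 1, Aurkb, Plk1 and Kif20a fell under the filter and were not tested. Plk1, which passed the filter only through Ngfr KO, was called in the 6 fits that tested it. On the WT side, replicate 3 held 0 reads for 7 of the 27 mitosis genes, against 0, 2 and 4 in WT replicates 1, 2 and 4. It also had 17771 genes above 0, against 18631 to 20047 in the other WT samples.

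The filter on low values bears on these counts. It passed 40 genes, of which 9 (Ccna2, Ccnb1, Ccnb2, Aurka, Aurkb, Plk1, Kif11, Kif20a and Kif23) had a WT mean under 0.1 and passed only because they were higher in Ngfr KO. Among the 31 genes with a mean of at least 0.1 in each group, 10 rose, against 11.4% of all genes tested that way. With no filter all 44 genes were tested and 13 rose, against 5.86% of all genes.

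**Figure D1:**
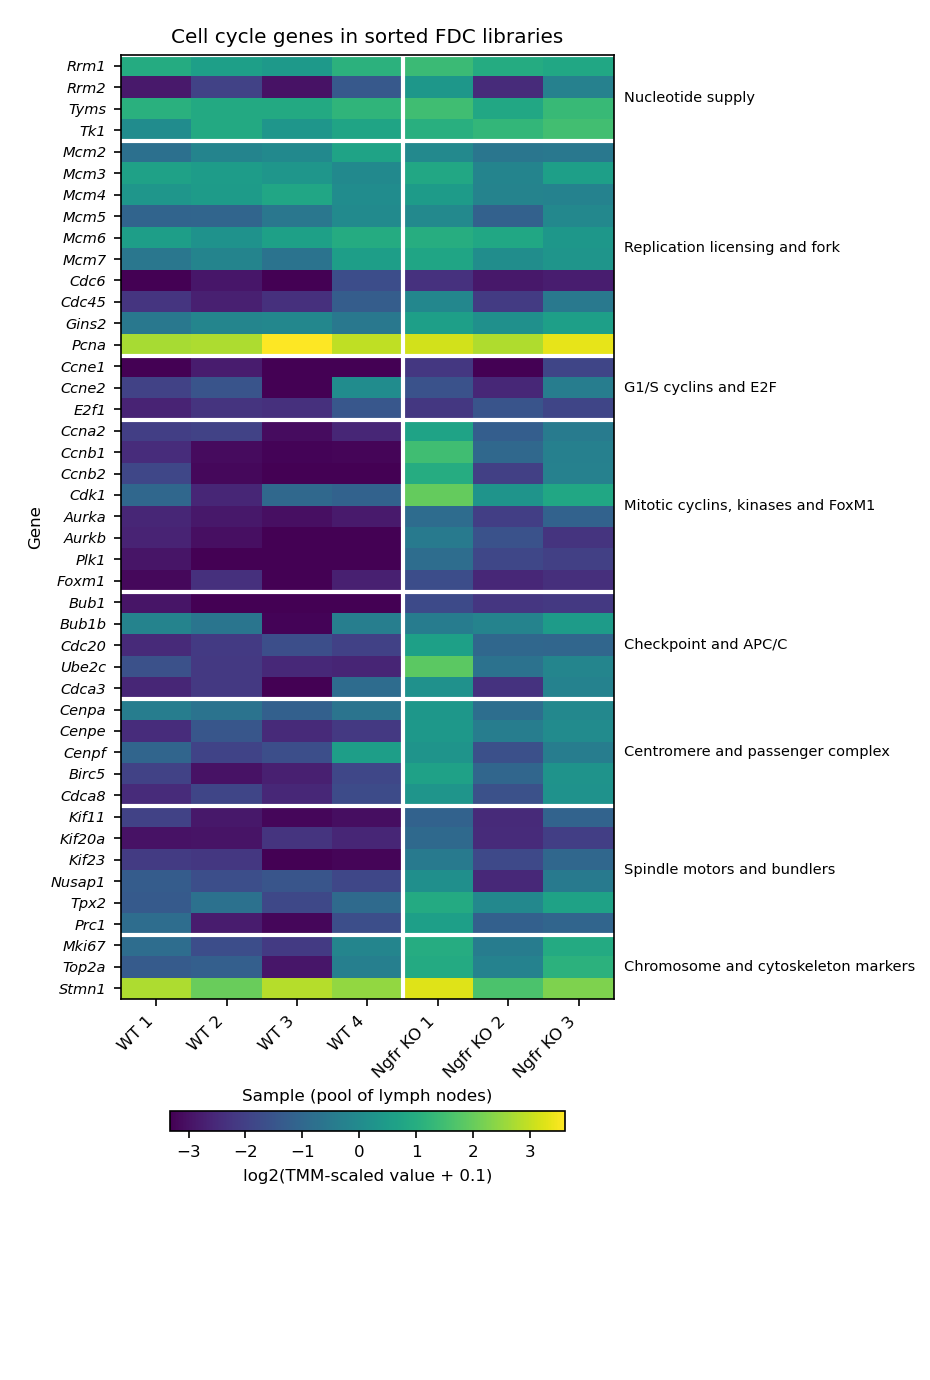
Heat map of the 44 genes (rows, grouped by role) in the 7 samples (columns), coloured by log2(value + 0.1). The rows of mitotic cyclins and kinases are dark in the 4 WT columns and lighter in the 3 Ngfr KO columns, lightest in Ngfr KO replicate 1, while the rows of the MCM genes and Pcna show no such step.

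Cyclins and kinases that drive mitosis are described first. Summed over the 8 genes of this group, the value was 0.981, 0.404, 0.452 and 0.523 in WT replicates 1 to 4 and 11.6, 2.61 and 4.42 in Ngfr KO replicates 1 to 3. The lowest Ngfr KO sample lay above the highest WT sample, and the mean was 10.5 times the WT mean with all Ngfr KO samples and 5.95 times without Ngfr KO replicate 1. The 7 genes tested in this group rose, but 6 of them passed the filter only through Ngfr KO, and with the filter applied in both groups Cdk1 alone was tested, so the count says nothing about the group.

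Ccnb1 (ENSMUSG00000041431, chromosome 13, 100778650 to 100786570, minus strand), which encodes cyclin B1, the partner that activates CDK1 at entry into mitosis, had 22, 4, 1 and 2 reads in WT and 740, 121 and 178 in Ngfr KO. It was barely detected in 3 of the WT libraries and well covered in every Ngfr KO library. Mean values were 0.0281 ± 0.0386 (SD, n = 4) for WT against 1.27 ± 1.23 (SD, n = 3) for Ngfr KO, the largest log2 change of the 40 genes tested (log2 change 3.08, SE 0.52, limma adjusted p = 0.00245). Cdk1 (ENSMUSG00000019942, chromosome 10, 69335146 to 69352938, minus strand), the kinase itself, had 103, 18, 94 and 92 reads in WT and 1041, 322 and 412 in Ngfr KO. No Ngfr KO library reached down to the WT range (log2 change 2.43, SE 0.47, limma adjusted p = 0.00462).

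Ccnb2, the second mitotic B cyclin, had 46, 3, 0 and 0 reads in WT and 513, 44 and 180 in Ngfr KO. Here the groups overlapped, since Ngfr KO replicate 2 lay below WT replicate 1 (log2 change 2.47, SE 0.62, limma adjusted p = 0.0153). The edgeR test on recovered reads did not call Ccnb2 (adjusted p = 0.0564). Ccna2, cyclin A2, which acts in S phase and at entry into mitosis, had 37, 42, 4 and 18 reads in WT and 417, 95 and 160 in Ngfr KO (log2 change 2.08, SE 0.47, limma adjusted p = 0.00952).

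Aurka, the kinase of the centrosome and spindle poles, had 17, 10, 5 and 11 reads in WT and 123, 42 and 87 in Ngfr KO (log2 change 1.47, SE 0.39, limma adjusted p = 0.019). Aurkb, the kinase of the chromosomal passenger complex, had 16, 6, 0 and 0 reads in WT and 173, 70 and 26 in Ngfr KO (log2 change 1.63, SE 0.46, limma adjusted p = 0.0249). Plk1, a kinase that acts throughout mitosis, had 8, 0, 0 and 0 reads in WT and 126, 53 and 37 in Ngfr KO (log2 change 1.66, SE 0.40, limma adjusted p = 0.0125). In all 3 kinases every Ngfr KO sample lay above every WT sample, but edgeR did not call Aurkb (adjusted p = 0.0622). Foxm1, a transcription factor of mitotic genes, was too low to be tested, with 3, 25, 0 and 14 reads in WT and 58, 21 and 23 in Ngfr KO.

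Stretches of promoter are shown here so that the letters before the start of some mitosis and S phase genes can be compared. The cell cycle homology region (CHR, TTTGAA or TTCGAA) and the CCAAT box are known elements of mitotic genes, and E2F sites (searched here as the core TTGGCGC with its variants that have TTCGCGC in its place, or else TTCCCGC, or finally the letters TTGCCGC) are elements of S phase genes. Each sequence runs 5′ to 3′ on the strand of its gene, from 150 bases before the RefSeq start up to that start or, for Ccnb1 and Ube2c, to 55 and 2 bases before it. Capitals mark matches to any of these motifs on either strand, and on the opposite strand a CCAAT box reads ATTGG, while the first form of the CHR reads TTCAAA. The positions, on GRCm38.p6, are chr13:100786541-100786636, minus strand for Ccnb1, chr10:69352913-69353062, minus strand for Cdk1, chr2:164769779-164769927, plus strand for Ube2c, chr3:135212413-135212562, plus strand for Cenpe, chr11:117849087-117849236, plus strand for Birc5, chr8:75109359-75109508, plus strand for Mcm5, and chr1:128359706-128359855, minus strand for Mcm6. The first 5 are mitosis genes that rose in every fit leaving out 1 library and had an entry in the RefSeq table, and the last 2 are MCM genes that were not called; all were chosen after their values were seen.
Ccnb1: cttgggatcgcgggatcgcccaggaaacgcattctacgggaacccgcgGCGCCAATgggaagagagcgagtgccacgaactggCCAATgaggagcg
Cdk1: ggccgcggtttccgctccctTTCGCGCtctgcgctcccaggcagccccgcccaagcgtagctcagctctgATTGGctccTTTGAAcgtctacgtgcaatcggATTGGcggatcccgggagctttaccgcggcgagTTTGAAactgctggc
Ube2c: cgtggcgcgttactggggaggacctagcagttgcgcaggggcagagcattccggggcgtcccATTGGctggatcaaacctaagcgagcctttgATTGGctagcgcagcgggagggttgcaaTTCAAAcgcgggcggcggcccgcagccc
Cenpe: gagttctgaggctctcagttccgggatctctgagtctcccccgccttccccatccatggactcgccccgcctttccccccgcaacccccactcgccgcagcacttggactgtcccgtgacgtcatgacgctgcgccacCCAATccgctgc
Birc5: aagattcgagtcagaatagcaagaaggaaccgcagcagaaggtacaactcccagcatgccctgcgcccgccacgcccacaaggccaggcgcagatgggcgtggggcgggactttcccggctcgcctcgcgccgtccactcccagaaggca
Mcm5: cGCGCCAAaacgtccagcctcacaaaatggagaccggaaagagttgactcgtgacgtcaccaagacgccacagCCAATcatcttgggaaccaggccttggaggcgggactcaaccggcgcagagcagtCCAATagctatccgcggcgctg
Mcm6: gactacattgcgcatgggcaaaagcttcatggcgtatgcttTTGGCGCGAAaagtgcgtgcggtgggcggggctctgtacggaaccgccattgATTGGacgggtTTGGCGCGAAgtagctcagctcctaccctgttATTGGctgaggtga

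In these stretches Cdk1 held 2 CHR matches, 2 CCAAT boxes and 1 E2F core, and Ube2c held 1 CHR match and 2 CCAAT boxes. Ccnb1 held 2 CCAAT boxes, 1 of which shares bases with an E2F core. Cenpe held 1 CCAAT box, and Birc5 held none of these letters. Mcm6 held 4 overlapping E2F core matches and 2 CCAAT boxes, and Mcm5 held 1 E2F core and 2 CCAAT boxes, with no CHR match in either.

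RefSeq windows of 250 bases before to 50 after the start were available for 35 of the 44 genes. A CHR match lay in 17 of 21 windows of mitosis genes (81%) and in 3 of 14 windows of S phase genes (21.4%), beside 16.8% of 10123 tested genes with a window. For the CCAAT box the shares were 90.5%, 64.3% and 42.7%, and for the E2F core 14.3%, 50% and 19%. Among mitosis genes, 10 of 13 windows of genes that rose held a CHR match, and 7 of 8 windows of the others did. A match is a description of the letters and not evidence of binding.

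**Figure D2:**
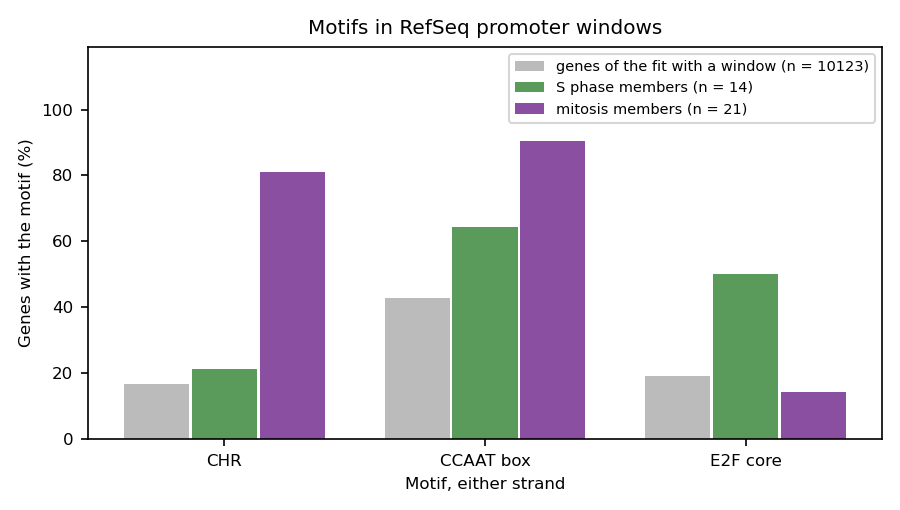
Bars give the percentage of genes whose RefSeq promoter window holds each motif on either strand, for all tested genes with a window (grey), S phase genes (green) and mitosis genes (purple). CHR matches stand at 81% in mitosis genes, and E2F core matches are most frequent in S phase genes, at 50%.

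The spindle checkpoint holds a cell in mitosis and the APC/C releases it. Of the 5 genes of this group 4 were tested and 2 rose, beside 11.2% of all genes tested. Summed over 5 genes the value was 1.16, 0.913, 0.296 and 1.35 in WT and 6.81, 1.88 and 3.32 in Ngfr KO, with no overlap. Ube2c (ENSMUSG00000001403, chromosome 2, 164769898 to 164778822, plus strand), the ubiquitin-conjugating enzyme of the APC/C, had 59, 32, 17 and 17 reads in WT and 967, 151 and 197 in Ngfr KO (log2 change 2.55, SE 0.54, limma adjusted p = 0.00664). Ngfr KO replicate 1 held several times the reads of the other Ngfr KO libraries. A part of its annotated exons, 22.8% of the bases, also belongs to Tnnc2 on the opposite strand, whose reads were not analysed here.

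Cdc20, the activator of the APC/C at anaphase, had 20, 34, 50 and 40 reads in WT and 395, 117 and 97 in Ngfr KO (log2 change 1.59, SE 0.44, limma adjusted p = 0.0234). Bub1, a checkpoint kinase, was not tested, with 8, 0, 0 and 0 reads in WT and 53, 33 and 30 in Ngfr KO; with no filter it was called (log2 change 1.16, limma adjusted p = 0.00911), whereas edgeR gave an adjusted p of 0.0786. Its groups did not overlap, although no library held more than 53 reads. Bub1b, which encodes the checkpoint protein BubR1, had 193, 145, 1 and 179 reads in WT and 178, 223 and 320 in Ngfr KO (log2 change 1.06, SE 0.62, limma adjusted p = 0.234). WT replicate 3 held 1 read of Bub1b where every other library held over 100. Cdca3, a trigger of mitotic entry, ranged from 0 to 118 reads (WT) and from 30 to 284 reads (Ngfr KO) and was not called (log2 change 1.44, SE 0.64, limma adjusted p = 0.123).

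Centromere and chromosomal passenger genes rose in 3 of 5 cases, beside 11.2% of all genes tested. Cenpe (ENSMUSG00000045328, chromosome 3, 135212537 to 135273611, plus strand), a kinesin that carries chromosomes to the spindle equator, had 22, 70, 18 and 32 reads in WT and 328, 194 and 227 in Ngfr KO (log2 change 2.13, SE 0.36, limma adjusted p = 0.00257). Its value was 0.919 ± 0.266 (SD, n = 3) for Ngfr KO against 0.137 ± 0.0855 (SD, n = 4) for WT, and the groups were separate. Birc5 (ENSMUSG00000017716, chromosome 11, 117849251 to 117855743, plus strand), which encodes survivin of the passenger complex, had 41, 7, 12 and 47 reads in WT and 402, 113 and 268 in Ngfr KO (log2 change 2.31, SE 0.46, limma adjusted p = 0.00504). Cdca8, which encodes borealin of the same complex, had 21, 46, 16 and 52 reads in WT and 306, 67 and 262 in Ngfr KO (log2 change 1.78, SE 0.47, limma adjusted p = 0.0196).

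The remaining centromere genes were detected in WT as well. Cenpa, the centromeric histone H3 variant, had 172, 139, 77 and 139 reads in WT and 322, 139 and 209 in Ngfr KO, and the groups overlapped (log2 change 0.55, SE 0.34, limma adjusted p = 0.267). Cenpf, a kinetochore protein, was highest of all in WT replicate 4, with 98, 43, 50 and 358 reads in WT and 302, 66 and 166 in Ngfr KO (log2 change 0.44, SE 0.58, limma adjusted p = 0.61). The intervals of both changes, -0.20 to 1.30 for Cenpa and -0.83 to 1.71 for Cenpf (95%, log2), leave room for a rise as well as a fall.

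Among motors and bundling proteins of the spindle, 2 of 6 rose, beside 11.2% of all genes tested. Kif23, Kif11 and Kif20a of this group passed the filter only through Ngfr KO. Tpx2 (ENSMUSG00000027469, chromosome 2, 152847964 to 152895321, plus strand), an activator of Aurora A on spindle microtubules, had 75, 132, 42 and 111 reads in WT and 493, 246 and 375 in Ngfr KO (log2 change 1.71, SE 0.36, limma adjusted p = 0.00651). Kif23, a motor of the central spindle needed for cytokinesis, had 33, 31, 0 and 2 reads in WT and 167, 55 and 99 in Ngfr KO (log2 change 1.61, SE 0.45, limma adjusted p = 0.0248); edgeR did not call it (adjusted p = 0.129). Both genes had groups that did not overlap.

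The other 4 were higher on average in Ngfr KO but were not called. Kif11, the motor that pushes spindle poles apart, ranged from 2 to 40 reads across WT and from 23 to 96 across Ngfr KO (limma adjusted p = 0.0806). Prc1, which bundles midzone microtubules, ranged from 2 to 118 and from 95 to 384 reads (limma adjusted p = 0.0749). Nusap1, a microtubule-binding protein of the spindle, ranged from 46 to 78 and from 22 to 273 reads (limma adjusted p = 0.415). For Kif20a, a motor of cytokinesis, the ranges were 7 to 24 and 24 to 115 reads (limma adjusted p = 0.156), and 29.3% of its exon bases are shared with Cdc23 on the opposite strand. On scaled values the lowest Ngfr KO library lay below the highest WT library in each of these 4 genes.

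Mki67 and Top2a, 2 widely used markers of cycling cells, rose. Mki67, which encodes the Ki-67 protein that coats mitotic chromosomes, had 118, 57, 29 and 206 reads in WT and 512, 193 and 444 in Ngfr KO (log2 change 1.70, SE 0.49, limma adjusted p = 0.0269). Its groups overlapped, since Ngfr KO replicate 2 lay below WT replicate 4 on the scaled values, and it was called in 3 of the 7 fits that left out 1 library. Top2a, the topoisomerase that untangles chromosomes, had 77, 88, 8 and 181 reads in WT and 493, 217 and 518 in Ngfr KO (log2 change 2.04, SE 0.53, limma adjusted p = 0.0184). edgeR called neither (adjusted p = 0.0508 and 0.054). Stmn1, which encodes the microtubule destabiliser stathmin, found also in cells that do not divide, was not called, with 1693, 1066, 1608 and 1446 reads in WT and 2602, 891 and 1164 in Ngfr KO (log2 change -0.14, SE 0.33, limma adjusted p = 0.783; 95% interval -0.85 to 0.57).

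**Figure D3:**
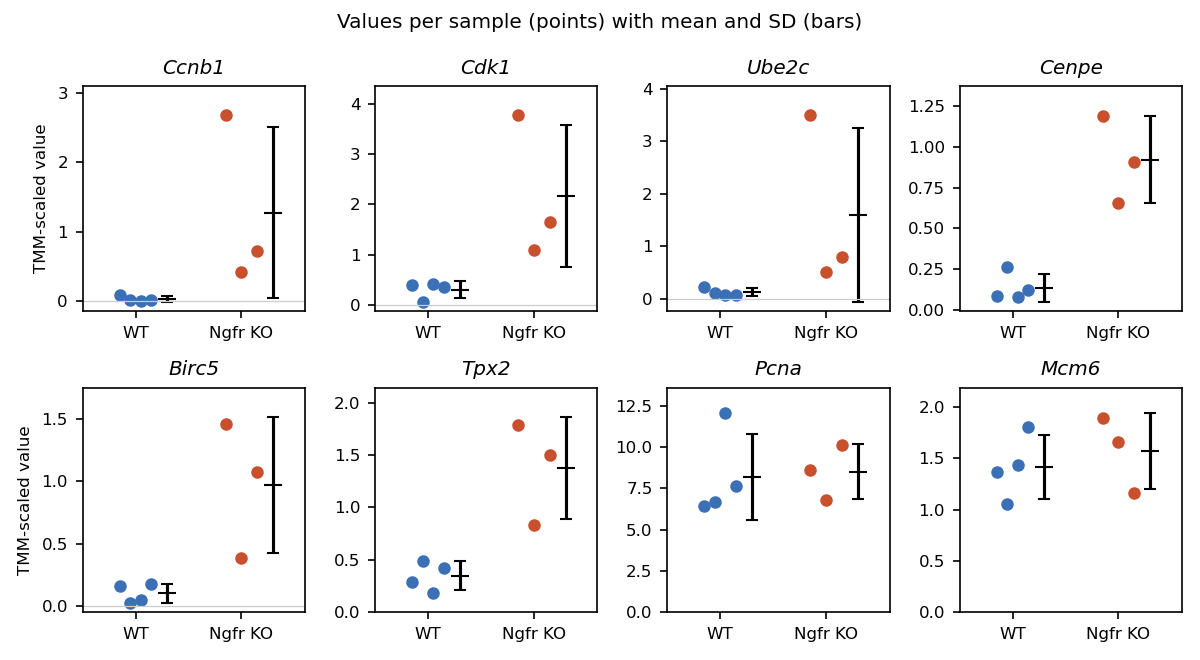
Scaled values of 8 genes in every sample (points, WT blue and Ngfr KO orange) with the group mean and SD (black marks and bars; n = 4 and n = 3). For Ccnb1, Cdk1, Ube2c, Cenpe, Birc5 and Tpx2 all Ngfr KO points lie above all WT points and the highest is Ngfr KO replicate 1, whereas the points of Pcna and Mcm6 overlap.

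Genes of DNA replication follow. The 10 genes of licensing and of the replication fork summed to 12.5, 13.1, 19.1 and 16.1 in WT and 19.1, 13 and 18 in Ngfr KO, overlapping sets of values with a ratio of means of 1.1. Pcna made up much of this sum, and without it the other 9 genes summed to 6.09, 6.48, 7.07 and 8.49 in WT and 10.4, 6.22 and 7.91 in Ngfr KO, which overlapped too. Of the 9 tested genes of this group limma called 0, with 2 higher and 0 lower at an unadjusted p under 0.05, and edgeR and DESeq2 each called 1, Gins2.

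Mcm2 to Mcm7 encode the 6 subunits of the helicase. Mcm5 had 95, 102, 130 and 236 reads in WT and 234, 102 and 209 in Ngfr KO (log2 change 0.24, SE 0.38, limma adjusted p = 0.678), with a 95% interval of -0.59 to 1.07. The interval was -0.59 to 0.71 for Mcm3 and -0.43 to 0.71 for Mcm6, around log2 changes of 0.06 and 0.14. Mcm2 and Mcm4 were lower on average in Ngfr KO, with log2 changes of -0.33 (interval -1.09 to 0.42) and -0.41 (interval -1.03 to 0.21), and Mcm7 was higher, with 0.61 (interval -0.12 to 1.34). All 6 intervals include 0, and for Mcm2, Mcm3, Mcm4 and Mcm6 they exclude a doubling.

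Pcna, the sliding clamp of the DNA polymerases, had 1651, 1778, 2768 and 1997 reads in WT and 2373, 2001 and 2520 in Ngfr KO. The highest library was WT replicate 3 (log2 change 0.08, SE 0.24, limma adjusted p = 0.828), and the interval of the change, -0.44 to 0.60, excludes a doubling as well as a halving. Pcna also acts in DNA repair. Gins2, a subunit of the GINS complex of the moving fork, had 150, 210, 189 and 153 reads in WT and 384, 297 and 347 in Ngfr KO, without overlap, and just missed the threshold (log2 change 0.78, SE 0.27, limma adjusted p = 0.0539; edgeR adjusted p = 0.0445). Its exons share 67.3% of their bases with Gse1 on the opposite strand, so reads of the 2 genes cannot be separated without strand; Gse1 itself was not called (log2 change 0.40, SE 0.45, limma adjusted p = 0.538).

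Cdc45, which joins the helicase when origins fire, had 28, 14, 22 and 82 reads in WT and 227, 38 and 149 in Ngfr KO (log2 change 1.23, SE 0.51, limma adjusted p = 0.098). Cdc6, a loader of the helicase, was not tested, with 0, 9, 0 and 56 reads in WT and 27, 11 and 12 in Ngfr KO. Its mean values were 0.0618 ± 0.102 (SD, n = 4) for WT and 0.0611 ± 0.0324 (SD, n = 3) for Ngfr KO, and edgeR did not call it (log2 change 0.04, adjusted p = 0.99).

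Enzymes of nucleotide supply held the single S phase gene that was called. Tk1, the thymidine kinase of dividing cells, had 240, 470, 261 and 404 reads in WT and 541, 675 and 684 in Ngfr KO (log2 change 0.78, SE 0.26, limma adjusted p = 0.0487). The groups did not overlap, but the call was lost in 6 of the 7 fits that left out 1 library and with edgeR (adjusted p = 0.0515). Rrm2, the S phase subunit of ribonucleotide reductase, had 10, 42, 6 and 74 reads in WT and 322, 24 and 182 in Ngfr KO, with Ngfr KO replicate 2 inside the WT range (log2 change 1.50, SE 0.62, limma adjusted p = 0.0986). The large subunit Rrm1 had 469, 373, 286 and 543 reads in WT and 698, 530 and 407 in Ngfr KO (log2 change 0.27, interval -0.28 to 0.82). Tyms, thymidylate synthase, had 517, 470, 399 and 584 reads in WT and 746, 492 and 605 in Ngfr KO (log2 change 0.20, interval -0.30 to 0.70). For both enzymes the intervals exclude a doubling.

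The 3 regulators of the G1 to S transition varied widely within groups. Ccne1, cyclin E1, had 0, 12, 0 and 0 reads in WT and 33, 0 and 43 in Ngfr KO and was not tested. Ccne2, cyclin E2, had 41, 67, 0 and 245 reads in WT and 64, 21 and 166 in Ngfr KO, with the highest count in WT replicate 4 (log2 change 0.17, SE 0.69, limma adjusted p = 0.878), and 17.4% of its exon bases belong also to Ints8 on the opposite strand. E2f1, the transcription factor of S phase genes, had 16, 28, 22 and 71 reads in WT and 33, 74 and 43 in Ngfr KO (log2 change 0.32, SE 0.39, limma adjusted p = 0.585). Limma, edgeR and DESeq2 called 0 of these 3 genes, and limma had 0 at an unadjusted p under 0.05.

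**Figure D4:**
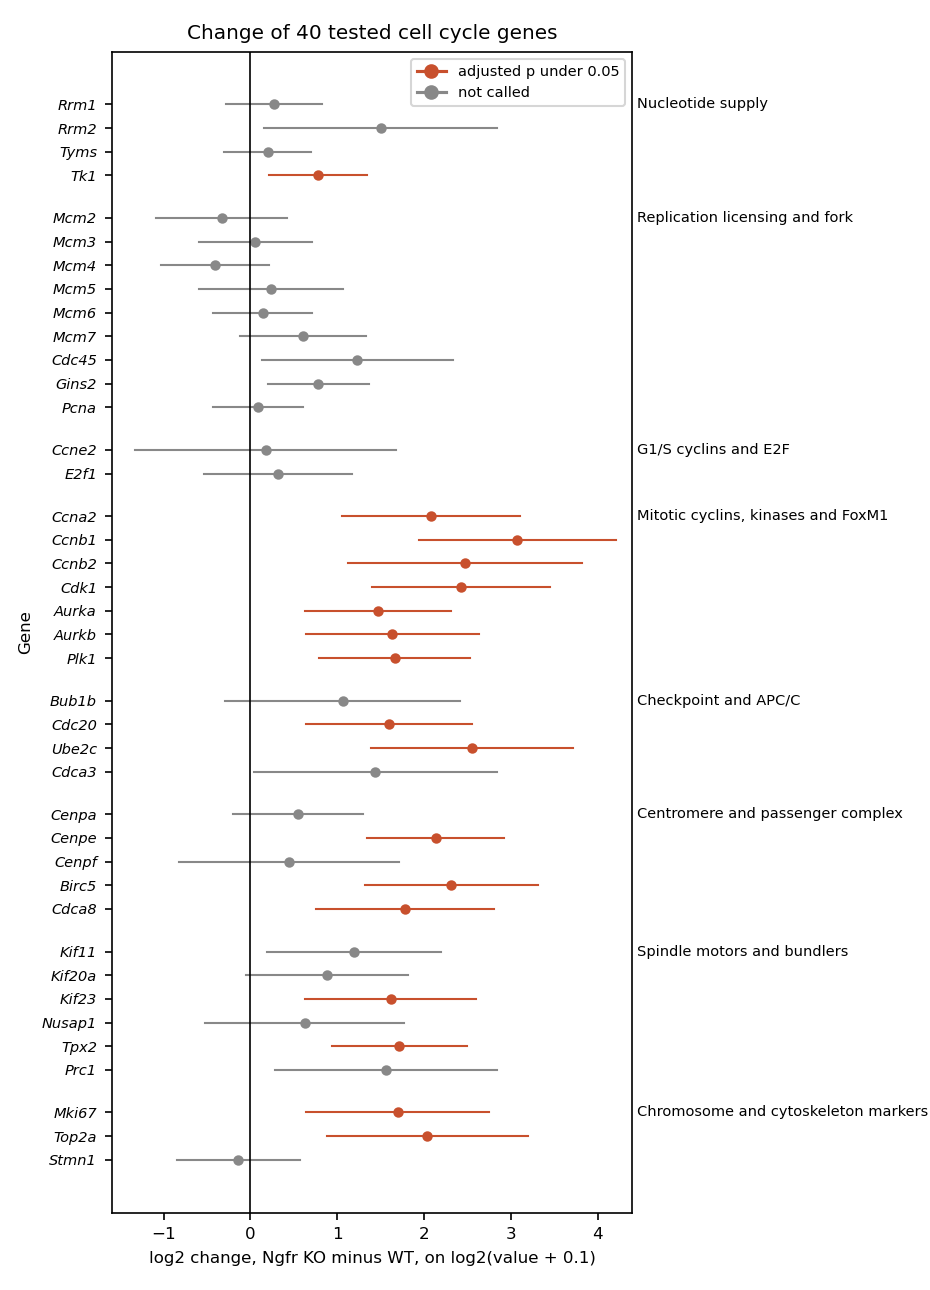
Points give the log2 change (Ngfr KO minus WT, on log2(value + 0.1)) of the 40 tested genes with 95% intervals from limma, orange where the adjusted p was under 0.05. All 17 orange points lie to the right of 0, 16 of them in the mitosis groups, and the intervals of the 6 MCM genes and Pcna cross 0. Of the 17 genes, 7 passed the filter only through Ngfr KO.

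Other cell cycle genes were examined as lists. Of 48 other mitosis genes 41 were tested, 11 rose and 1 fell, or 26.8% and 2.44% of those tested, beside 11.2% and 11.3% of all genes tested. How many of the 11 passed the filter only through Ngfr KO is not given here. Of 32 other replication genes 30 were tested and 2 rose, or 6.67%, under the 11.2% of all genes. Spc25, a subunit of the NDC80 kinetochore complex, rose from 0.399 ± 0.14 to 1.9 ± 0.676 (SD, n = 4 and n = 3; log2 change 2.00, SE 0.34, limma adjusted p = 0.00234). Kif2c, a kinesin that takes microtubules apart at centromeres, and Hmmr, a spindle-pole protein, rose by log2 changes of 1.90 and 1.85 (limma adjusted p = 0.00879 and 0.0119). Pttg1, securin, the inhibitor of separase, fell from 8.72 ± 0.993 to 5.22 ± 1.29 (log2 change -0.75, SE 0.21, limma adjusted p = 0.0233). The 2 replication genes that rose were Fen1, the flap endonuclease, by 1.16 and Orc5, an origin recognition subunit, by 0.70 (limma adjusted p = 0.0205 and 0.0317). Over all 139 genes of the pathway lists, 21 rose with all samples and 4 without Ngfr KO replicate 1, when 6.15% of all genes tested were called higher.

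The remaining lists are short, and their counts of genes that rose are to be read against the 11.2% of all genes tested. Among G1 cyclins and their kinases, 2 of 9 rose. Ccnd2, cyclin D2, rose from 2.76 ± 0.697 to 4.76 ± 0.308 (log2 change 0.80, SE 0.23, limma adjusted p = 0.0294). Ccnc, cyclin C, rose by 0.67 (limma adjusted p = 0.0465). Ccnd1, cyclin D1, had values of 14.4 ± 1.42 in WT and 13.1 ± 1.85 in Ngfr KO (log2 change -0.14, SE 0.18, limma adjusted p = 0.584), and Ccnd3 had a log2 change of 0.31 (limma adjusted p = 0.318).

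Inhibitors of cyclin-dependent kinases were mixed. Cdkn3, a phosphatase that acts on CDK proteins, rose by 1.97 (limma adjusted p = 0.00877), with 0 to 14 reads across WT and 57 to 224 across Ngfr KO. At those reads its WT mean was under 0.1, so it passed the filter only through Ngfr KO. Cdkn2b, the INK4 inhibitor p15, rose by 1.11 (limma adjusted p = 0.0423). Cdkn1a, which encodes p21, had values of 4.71 ± 3.89 in WT and 5.69 ± 2.05 in Ngfr KO (log2 change 0.49, SE 0.45, limma adjusted p = 0.46). Cdkn1b, which encodes p27, had 2.29 ± 0.0912 in WT and 1.43 ± 0.425 in Ngfr KO, without overlap, and missed the threshold (log2 change -0.68, SE 0.23, limma adjusted p = 0.0525).

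Of 12 pocket protein and E2F partner genes, Tfdp1, which encodes the dimer partner of E2F, rose by 1.10 and Tfdp2 fell, with a log2 change of -0.95 (limma adjusted p = 0.00486 and 0.0153). In the DREAM and B-Myb list 1 of 6 rose, Lin37 (log2 change 0.67, SE 0.21, limma adjusted p = 0.0354). In the damage and p53 list 2 of 12 rose, Mdm2, the ligase that degrades p53, by 0.81 and Trp53, which encodes p53, by 0.71 (limma adjusted p = 0.0348 and 0.0359).

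Anti-proliferative and quiescence genes had 6 of 12 lower in Ngfr KO (11 tested), beside 11.3% of all genes tested, and 0 higher in limma, edgeR and DESeq2 alike (limma had 1 higher at an unadjusted p under 0.05). Klf2, a transcription factor linked to quiescence in lymphocytes and to the flow response of endothelium, fell from 15.8 ± 4.67 to 1.35 ± 0.488 (log2 change -3.46, SE 0.27, limma adjusted p = 7.24e-05). Klf4, a related factor, and Foxo1, a factor that restrains the cycle, fell with log2 changes of -2.65 and -1.74 (limma adjusted p = 0.000149 and 0.000758). Btg2, an anti-proliferative immediate early gene, fell from 35.5 ± 13.3 to 13.7 ± 4.55 (log2 change -1.36, SE 0.29, limma adjusted p = 0.00709). These falls ran beside those of the endothelial list, which summed to 222 to 332 across WT libraries and 40.8 to 81.4 across Ngfr KO libraries, and its part in them was not tested.

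Transcripts typical of germinal centre B cells were also higher in Ngfr KO. Of the 12 listed germinal centre genes 11 were tested and 7 rose, beside 11.2% of all genes tested. The list summed to 11.8 to 19.2 across WT libraries and 47.5 to 50.8 across Ngfr KO libraries, most of it from Fas, which many cell types express. Rgs13, a signalling regulator of these cells, had 0, 45, 0 and 0 reads in WT and 375, 260 and 248 in Ngfr KO (log2 change 3.18, SE 0.42, limma adjusted p = 0.000916). Mef2b, a transcription factor of these cells, had 1, 8, 13 and 0 reads in WT against 209, 118 and 104 in Ngfr KO, and Gcsam, a signalling adaptor, had 0, 66, 2 and 1 against 203, 97 and 169. These 3 genes, singled out after their values were seen, had at most 1 read in WT replicates 1 and 4 and at least 97 in every Ngfr KO library.

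Those 3 genes summed to 2.85, 1.61 and 2.09 in Ngfr KO replicates 1 to 3, and all 3 passed the filter only through Ngfr KO. The full list of 12 summed to 47.5, 50.1 and 50.8 in Ngfr KO replicates 1 to 3. Fas made up most of this, at 34.3, 37.2 and 39.1, so the order of these sums says little about the other genes. Of 12 genes of B cells at large, limma and edgeR called 0 and DESeq2 called 1, with 1 at an unadjusted p under 0.05 in limma. Over all genes tested, limma called 11.2% higher and 11.3% lower. The B-cell list summed to 19.1, 29.2, 20.1 and 24.7 in WT and 31.6, 42.3 and 22.2 in Ngfr KO, highest in Ngfr KO replicate 2. Bcl6, the repressor that defines germinal centre B cells, had 166, 223, 166 and 103 reads in WT and 100, 108 and 237 in Ngfr KO (log2 change -0.26, SE 0.37, limma adjusted p = 0.639). Il21r, also of the germinal centre list, lay lower in every Ngfr KO sample than in every WT sample. It was not called (log2 change -0.64, SE 0.27, limma adjusted p = 0.108). The part of germinal centre B-cell RNA in the mitosis genes was not tested.

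Other cell types were checked in the same way. Their counts are to be read against 11.2% higher and 11.3% lower over all genes tested. Of the 12 myeloid, 8 plasma cell and 9 immunoglobulin genes, limma tested 7, 5 and 8. The 12 T-cell genes summed to 5.31 to 17.5 (WT) and 6.81 to 15.7 (Ngfr KO), with 1 lower (Thy1), and Cd3e of the T-cell receptor complex was not called (log2 change -0.28, SE 0.41, limma adjusted p = 0.642). The 12 myeloid genes summed to 3.82 to 10.8 and 10.9 to 48, with 2 higher (Lyz2 and Cd14), and the sum was separate between groups and highest in Ngfr KO replicate 3. Lyz2 overlapped between groups and was called in 2 of the 7 fits that left out 1 library. C1qb, under the filter, went the other way, with 41, 41, 32 and 3 reads in WT and 1, 0 and 0 in Ngfr KO. It was called lower by edgeR (adjusted p = 0.0274) but not by limma without a filter (adjusted p = 0.0569). The 8 plasma cell genes summed to 7.17 to 46 and 18.2 to 19.8, with 1 higher (Xbp1), and the 9 immunoglobulin genes to 23.3 to 400.5 and 15.8 to 49.9, with 1 higher (Ighg2c). The 12 reticular stroma genes summed to 96.4 to 229.9 and 256 to 369, with 2 higher (Ccl19 and Dcn). These 2 made up most of the sum, and the other 10 overlapped between groups, at 28.6 to 108 and 32.5 to 55.5. The 2 erythroid genes in the table were under the filter and summed to at most 0.341 in any library. Hbb-bt, a beta globin, had 3, 5, 0 and 0 reads in WT and 83, 33 and 25 in Ngfr KO, and was called without a filter (limma adjusted p = 0.0176) and by edgeR (adjusted p = 0.0397). Of the genes that head the other lists, the endothelial adhesion gene Pecam1 fell (log2 change -1.65, SE 0.22, limma adjusted p = 0.000909). Sdc1 of plasma cells, Igkc, which encodes the kappa light chain, and Pdpn of reticular stroma were not called (limma adjusted p = 0.81, 0.5 and 0.163). The part of these cell types in the mitosis genes was not tested.

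**Figure D5:**
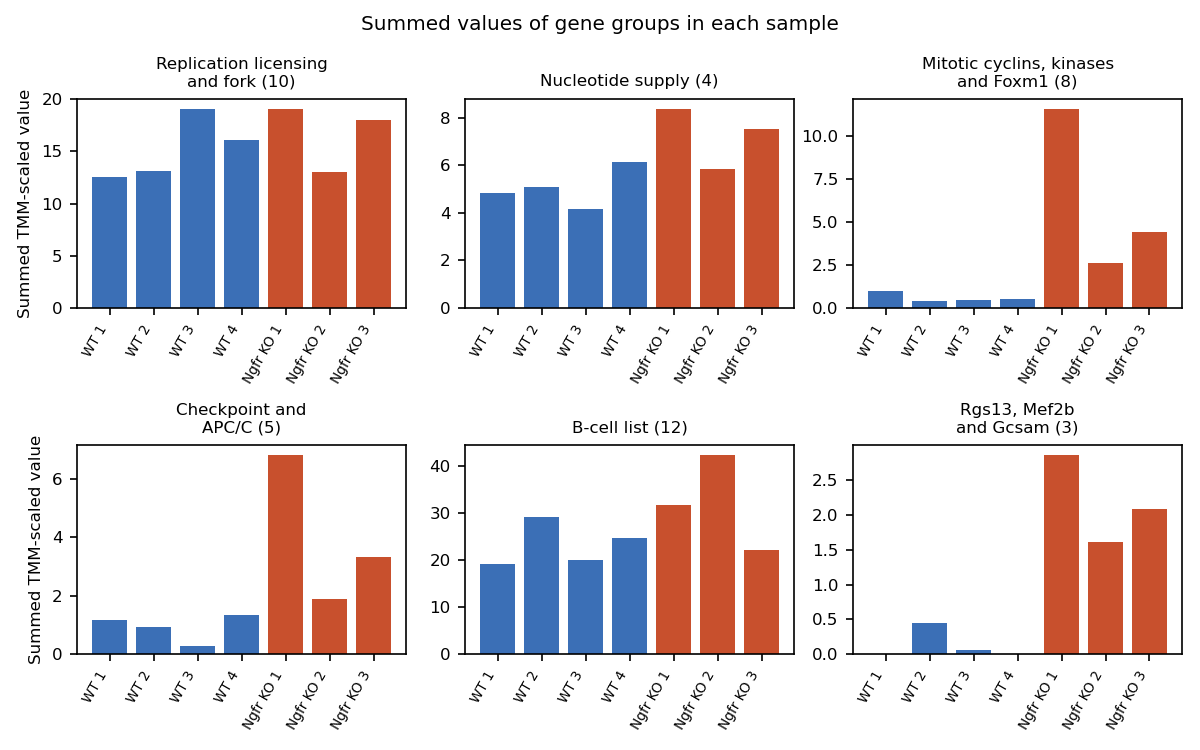
Summed scaled values of 6 gene groups in each of the 7 samples (bars, WT blue and Ngfr KO orange; the number of genes is in brackets). The bars of mitotic cyclins and kinases and of the 3 germinal centre genes do not overlap between genotypes, and those of the replication, nucleotide supply and B-cell groups do. The 3 germinal centre genes were singled out after their values were seen, and all 3 passed the filter only through Ngfr KO.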

How the data were processed

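The authors deposited 1 table with 1 column per sample, a signal per gene scaled by TMM (trimmed mean of M values) according to the name of the table. The submitters' processing notes name bcl2fastq 2.20.0.422 and build mm10. The aligner, counter, annotation and strand setting are not given in the sources used here. Per the labels' protocols, cDNA was made with SMART-Seq v4 and libraries with Nextera XT. All values were whole multiples (tolerance 0.05 of a read) of 1 step per column (100% in every sample), which returned the reads; amplified reads are not independent molecules. Positions are from GENCODE M21 on GRCm38, matched by identifier; 16 of the 44 genes share exon bases with another gene.

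Ngfr KO was compared with WT by limma 3.58.1 in R 4.3.3 (eBayes with trend, no covariates) on log2(value + 0.1) for genes with a mean over 7 samples of at least 0.1. The pseudocount is worth 23 to 29.5 reads and understates changes of low genes. Intervals are 95%. The scripts were tested on simulated data. Alternatives were other pseudocounts and filters, quantile and median ratio scaling, edgeR 4.0.16 and DESeq2 1.42.0 on recovered reads, thinned reads, the replicate number as a block and leaving out each sample. The 44 genes and all lists were chosen with earlier results of these data known. Values per sample are given for genes called and for 8 preset ones; of each pathway list, up to 3 called genes a direction and 7 preset genes are named. The first gene of each marker list is named where it has a row, apart from 2 genes not reported here. Other genes with values were chosen after their values were seen. Listed genes without a row are not analysed here.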

Additional observations from a re-analysis of the deposited data

Results flagged for a closer look

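Among 46 results examined in the 4 WT samples on log2(value + 0.1), 7 had 1 sample set apart from the rest by Dixon's 95% criterion for 4 samples, where chance gives about 1 in 20, or 2.3. WT replicate 1 was high for Ccnb1 (gap 0.832 of the range, 22 reads against 1 to 4), Ccnb2 (0.896, 46 reads against 0 to 3), Plk1 (1.0, 8 reads against 0) and Bub1 (1.0, 8 reads against 0). WT replicate 2 was high for Ccne1 (1.0, 12 reads against 0) and low for Cdk1 (0.892, 18 reads against 92 to 103). WT replicate 3 was low for Bub1b (0.866, 1 read against 145 to 193). In 5 of the 7 the set-apart sample held more reads than the others, and for 4 of these it held 22 reads or fewer. For Plk1, Bub1 and Ccne1 the gap of 1.0 follows from 0 reads in all other WT samples. The 1 in 20 supposes independent results away from the floor, so 7 against 2.3 is not a test.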

How the results depend on the processing

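No alternative called any of the 44 genes lower, and 0 of them were lower at an unadjusted p under 0.05 in limma. The count of 17 that rose was 10 with the filter applied in both groups, 2 with a mean of at least 1 required (9 of the 44 tested), 13 without a filter (all 44 tested), 12 with edgeR, and 6 to 20 across the fits leaving out 1 library (6 without Ngfr KO replicate 1, 11 without Ngfr KO replicate 3). For the 16 mitosis genes the counts were, in the same order, 9, 1, 13, 11 and 6 to 18. With a mean of at least 1 required, 18% of all 7932 genes tested were called higher, and the 2 of 9 lie near that share. The single S phase call, Tk1, became 0 with a pseudocount of 0.02, no filter or thinned reads, 2 with quantile or median ratio scaling, 3 with DESeq2 and 0 to 2 without 1 library. DESeq2 called 12.2% of all its genes higher, and it also made calls in simulated data where no gene differed. The median log2 change of the tested genes, 1.21, was 1.79 with a pseudocount of 0.02, 0.36 with 1, 0.14 with a mean of at least 1, 1.93 with edgeR, 1.92 with DESeq2 and 0.93 to 1.67 without 1 library. Over all genes 3219 were called, and 1664 to 3516 without 1 library (2008 without WT replicate 1, 1882 without Ngfr KO replicate 1, 1664 without Ngfr KO replicate 2). Of the pathway genes 21 rose, 4 to 28 without 1 library (12 without WT replicate 1). All 18 alternatives chosen at the start were run and none was added later. The cause of the shifts between scalings and tools was not tested.

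Among the 44 genes the sign turned for 4 that were not called, given here with the far end of their range where it moved most: Mcm3 (-0.0727 with the replicate block, -0.07 without WT replicate 4, -0.15 without Ngfr KO replicate 1, -0.04 without Ngfr KO replicate 3), Pcna (-0.0450 with quantile normalization, -0.02 without WT replicate 1, -0.0495 without Ngfr KO replicate 3; 0.28 without WT replicate 3), Ccne2 (-0.0386 with edgeR, -0.0300 with DESeq2, -0.37 without WT replicate 3, -0.39 without Ngfr KO replicate 3; 0.75 without WT replicate 4) and Stmn1 (0.0497 with edgeR, 0.0358 with DESeq2, 0.23 without Ngfr KO replicate 2; -0.58 without Ngfr KO replicate 1). The labels do not say what replicate numbers share. Deviations of same-numbered samples correlated at 0.229, -0.00238 and 0.0298. Not every sample correlated best with its own number, so the numbers were not taken as pairs. With the replicate block 20 of the 44 genes rose, beside 10.9% of all genes tested, and 3194 genes were called in all.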
